A study of Zea mays with 16 samples.

Results

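Whole anthers of ms23 male-sterile maize were compared with anthers of their fertile siblings on a pair of two-colour Agilent arrays that carried the dyes in opposite orientation. The comparison was chosen by its labels: slide 2 array 3 held the ms23 mutant in Cy5 and the ms23 fertile sibling in Cy3, and slide 2 array 4 held the reverse. These arrays make up 4 of the 16 samples of the series, and each measured 42034 probes after control spots were left out. The remaining samples were 4 ms23 mutants hybridised on slide 1 against 4 ms32 mutants, and, on slide 2, 2 ms32 mutants hybridised against 2 ms32 fertile siblings. All samples were whole anthers of 1.5 mm from field-grown plants without treatment, and total RNA was amplified before it was labelled. The labels give the genotype only as ms23-mutant or ms23-fertilesib, with no allele and no inbred background. The titles number the mutant of this comparison as replicate 3 and the sibling as replicate 1 on both arrays, whereas the series text speaks of 2 biological replicates. The spread between the 2 arrays may therefore be technical. The p-values rest on a spread pooled over all 8 arrays of the series, of which only the slide 1 arrays hold more than 1 replicate number per comparison. They do not measure the spread between plants of this comparison.

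The ms23 locus encodes a basic helix-loop-helix transcription factor of the tapetum, the innermost wall layer of the anther, which feeds the meiocytes and later supplies material for the pollen wall. In ms23 mutants the cells in the tapetal position divide again and do not mature as a tapetum, and no functional pollen is made. The ms32 locus encodes another factor of the same class that acts in the same layer. In whole anthers a loss of transcripts from a cell layer can come from fewer cells of that layer or from less RNA per cell, and these cannot be told apart here.

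Most targets on the array are named by TC numbers, which stand for assembled expressed sequence tags, or by single GenBank entries. Of the 42034 probes, 4 matched a RefSeq symbol or synonym (assembly Zm-B73-REFERENCE-NAM-5.0), and none of them was named for ms23 or ms32. The loss of the mutated gene's own transcript was therefore not checked, and no probe bore the name of a tapetum, pollen wall or pollen marker from the lists used. Levels below are normalized intensities of each sample, on a linear scale. They compare samples for 1 probe and do not rank probes, because brightness also depends on the probe. Over the 4 samples of the comparison, median spot intensities were 95 to 138, 82.89% to 87.57% of probes were well above background, and the lowest normalized intensity of a probe marked as well above background was 53 to 60.5. No spot was saturated. The number of arrays limits the precision of every ratio.

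With loess normalization more losses than gains were called in ms23 mutant anthers, and the losses were much deeper. With median centring of each array, given below, more gains than losses were called. Of 39974 tested probes, limma called 371 as lower (0.928%) and 154 as higher (0.385%) at an adjusted p under 0.05, together 1.31% of the probes. Each ratio came from n = 2 arrays and the spread from all 8. The falls represented 366 target names and the rises 153. Most probes moved little: the median log2 ratio of mutant over sibling was -0.000273 over all tested probes, the 5th percentile -0.63 and the 95th percentile 0.55. Called falls ranged from -7.19 to -0.54 on the log2 scale and called rises from 0.57 to 4.08.

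The asymmetry grew with the size of the difference. At a difference of at least 2-fold, 311 falls and 115 rises were called, and at 4-fold 170 and 28. At 16-fold 47 falls and 1 rise were called, and at 64-fold 8 falls and no rise. Without regard to the test, 550 probes were at least 2-fold lower on both arrays and 311 at least 2-fold higher, and at 16-fold the counts were 40 and 1. With median centring of each array in place of loess, 497 rises and 265 falls were called, so that 34.8% of the calls were falls in place of 70.7%. With each pair of dye-swapped arrays averaged into 1 replicate, 30 falls and 2 rises passed, and without slide 2 array 3 or without array 4 limma called 70 or 47 falls and 1 rise each.

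**Figure D1:**
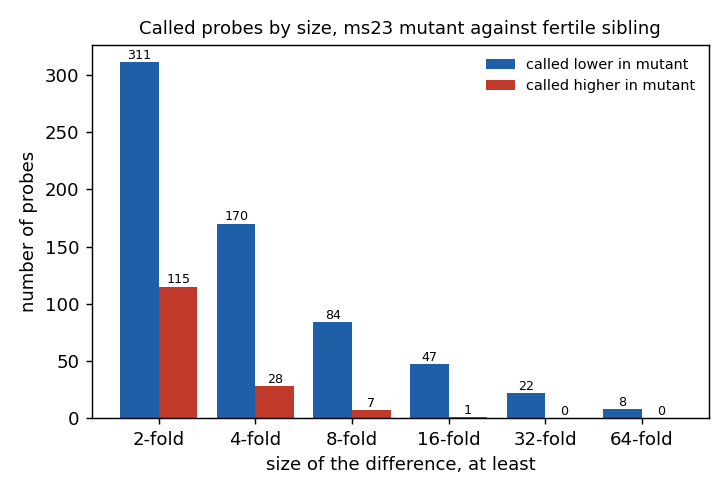
Number of probes called lower (blue) or higher (red) in ms23 mutants against fertile siblings, counted at or above each fold size on the horizontal axis. With loess normalization falls outnumber rises at every size, from 311 against 115 at 2-fold to 8 against 0 at 64-fold.

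The arrays gave the same direction wherever a difference was called. All 370 called falls and all 154 called rises with a ratio on both arrays had the same sign on each, against 52.1% of the 39723 tested probes measured on both (a call by this test favours probes with like ratios on both). The log2 ratios of the 2 arrays correlated at 0.52 across probes, and at 0.328 with the processed signals of the scanner software. Probes are not independent replicates. A probe called lower differed by a median of 0.457 between the arrays and a probe called higher by 0.332, whereas the median over all tested probes was 0.237. Both arrays showed at least a 2-fold fall for 273 of the called falls and at least a 2-fold rise for 89 of the called rises.

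**Figure D2:**
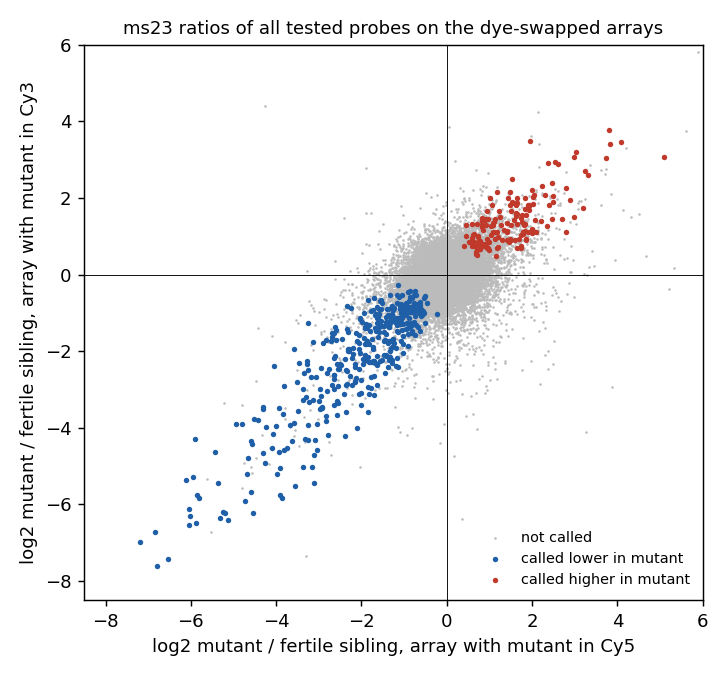
Log2 ratio of ms23 mutant over fertile sibling for each tested probe on the array with the mutant in Cy5 (horizontal axis) and on the array with the mutant in Cy3 (vertical axis). Called falls (blue), with means of the 2 arrays down to -7.19, and called rises (red), with means up to 4.08, have the same sign on both axes.

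The 10 deepest losses, among called falls with both fertile samples well above background, are described first. TC299638 had intensities of 67703 and 47330 in the fertile samples (Cy3 and Cy5) and of 244.6 and 611.1 in the mutants on the same slide. The ms23 mutants of slide 1 had 107.9 and 1591.9 in replicate 1 and 170.5 and 203.1 in replicate 2, in Cy3 and Cy5. All 6 mutant values lay far below both fertile values, but the replicate 1 samples of opposite dye were far apart. Its log2 ratio was -7.19 (SE 0.863, limma adjusted p = 0.0259), or 146-fold lower, with -6.79 and -7.60 on the 2 arrays.

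TC314183 was also far lower in all mutants, again with a spread among the slide 1 samples. Its fertile intensities were 52010 and 44414, those of the mutants on slide 2 were 422.9 and 455.3, and those of the slide 1 mutants were 586.2 and 2552.3 in replicate 1 and 899.2 and 200.3 in replicate 2. The groups did not overlap, and the log2 ratio was -6.78 (SE 0.494, limma adjusted p = 0.0128), or 110-fold lower. On slide 1 it was also lower in ms23 than in ms32 mutants, by a log2 ratio of -5.62 (limma adjusted p = 0.000835).

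For 3 further transcripts the fertile level was also high while the mutant level lay nearer background. TC283808 had 26820 and 28480 in the fertile samples, 226.8 and 183.4 in the mutants of slide 2, and 58.0 to 70.2 in the 4 mutants of slide 1. AW520047 had 8933.2 and 19095 in the fertile samples, 111.3 and 96.9 in the mutants of slide 2, and 60.2 to 79.6 in those of slide 1. TC308375 had 5711.3 and 16946 in the fertile samples, 296.6 and 101.8 in the mutants of slide 2, and 60.7 to 73.8 in those of slide 1. In all 3, both slide 2 mutants were higher than every slide 1 mutant, and all mutants were far below the fertile samples. The log2 ratios were -7.08 for TC283808 (SE 0.235), -6.97 for AW520047 (SE 0.170) and -5.82 for TC308375 (SE 0.155), with limma adjusted p of 0.000325, 0.000174 and 0.000174.

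In the other 5 falls the mutant signal was also low. On slide 2 it lay closest to the lowest intensity of any probe marked as well above background in TC291756 and TC284827. TC291756 had 3639.6 and 5167.8 in the fertile samples, and 65.4 and 55.9 in the mutants of slide 2. TC284827 had 4045.5 and 6572.9 in the fertile samples, and 70.4 and 61.8 in the mutants of slide 2. TC297345 had 5038.8 and 9118 in the fertile samples, and 101.6 and 85.5 in the mutants of slide 2. In each, both fertile values exceeded every mutant value, and the mutants of slide 1 lay at 54.6 to 66.7 for TC291756, 62.5 to 71.8 for TC284827 and 65.5 to 70.6 for TC297345. The log2 ratios were -6.16 (SE 0.114, limma adjusted p = 0.000119), -6.29 (SE 0.207, limma adjusted p = 0.000325) and -6.18 (SE 0.157, limma adjusted p = 0.000174).

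BM501035 had 8134.7 and 7696.3 in the fertile samples, 110.5 and 124.0 in the mutants of slide 2 and 61.8 to 82.6 in those of slide 1. TC290061 had 3351.7 and 7996.2 in the fertile samples, 97.4 and 83.8 in the mutants of slide 2 and 73.2 to 86.6 in those of slide 1. The fertile samples again stood above all 6 mutants, with log2 ratios of -6.08 (SE 0.228, limma adjusted p = 0.00051) and -5.84 (SE 0.297, limma adjusted p = 0.00163). Background correction added an offset of 50 to every signal, so a fold against a mutant value near that floor is understated. With the scanner software's processed signals, which carry no such offset, TC291756 had log2 ratios of -9.05 and -9.76 on the 2 arrays and TC284827 of -8.67 and -9.14.

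**Figure D3:**
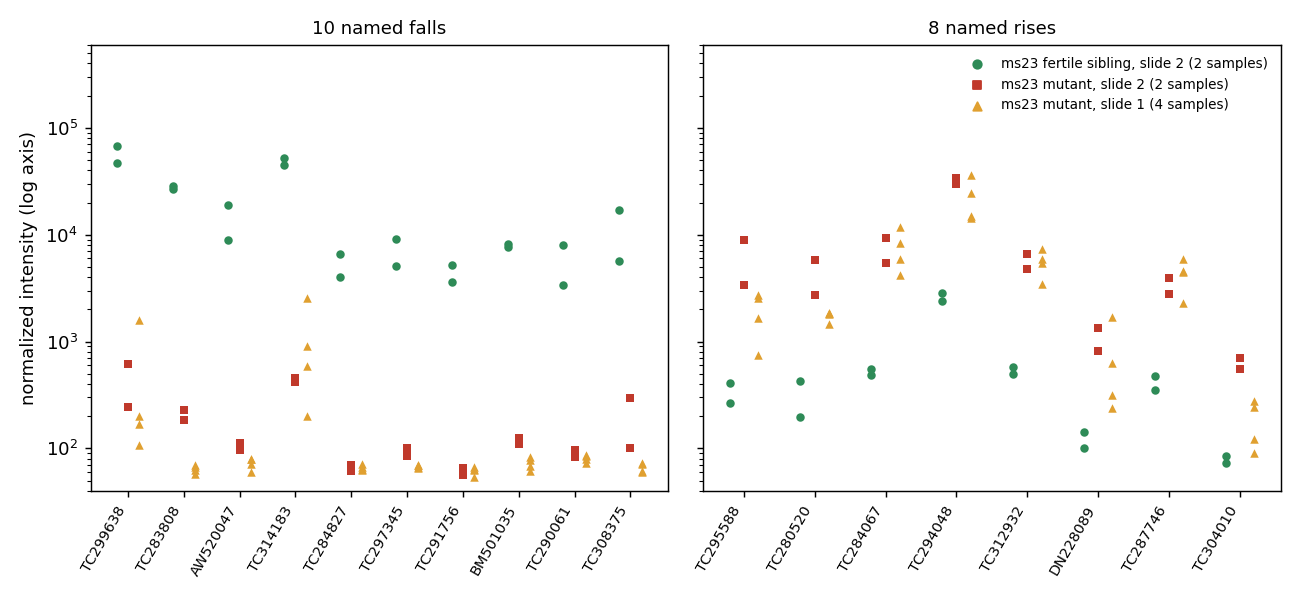
Normalized intensity (log axis) of the 10 named falls (left) and the 8 named rises (right), 1 point per sample: ms23 fertile siblings (green circles), ms23 mutants of slide 2 (red squares) and ms23 mutants of slide 1 (orange triangles). Both fertile points lie above all 6 mutant points for each of the 10 falls and below them for each of the 8 rises.

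Falls of at least 32-fold numbered 22, and the 12 outside these 10, singled out by size after their values were seen, had log2 ratios between -5.79 and -5.03. Their fertile intensities ranged from 2045.9 to 100630 and those of the slide 2 mutants from 58.4 to 3484.8. BM080333 had the lowest ratio among them, at -5.79 (limma adjusted p = 0.000599), and TC302633 followed at -5.77 (limma adjusted p = 0.000325). TC298940, at -5.74 (limma adjusted p = 0.0112), had the ratio nearest 0 of the 22 in the ms32 family, at -1.06. BM080333 and TC283860 (-5.10) each had another probe that was not called, at -0.37 and -0.11.

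Few called falls ended below the background mark in the mutants. Of the 371 falls, 6 were well above background in both fertile samples and in neither mutant of slide 2, 9 in 1 of these mutants and 356 in both. Over all tested probes the same classes held 69, 472 and 32694 probes. CF036691 was the deepest of the 6: its intensities were 1091.2 and 942.1 in the fertile samples, 59.3 and 57.9 in the mutants of slide 2 and 56.4 to 71.8 in those of slide 1. It was at least 17.3-fold lower in the mutants (limma adjusted p = 0.000325), where the bound sets the fertile mean against, for each mutant sample, the higher of its own value and the lowest intensity of any probe well above background. The remaining 5 were at least 1.55-fold to at least 2.77-fold lower, from CO452412 to TC308255. No rise was called among the 379 tested probes that were well above background in both mutants of slide 2 and in neither fertile sample. Over all tested probes 0.385% were called higher, a share at which a class of this size would hold few calls.

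Gains were smaller, and the probes of 7 of the 8 named rises were well above background in both fertile samples. TC295588 had 265.4 and 406.7 in the fertile samples and 3411.4 and 8992.1 in the mutants of slide 2, with 742.1 to 2717.6 in the mutants of slide 1. Its log2 ratio was 4.08 (SE 0.577, limma adjusted p = 0.0399), or 16.9-fold higher, and the ratios of the 2 arrays were 5.08 and 3.07. All 6 mutants were higher than both fertile samples, although the arrays differed by more for this rise than for the others named.

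TC280520 had 196.9 and 428.1 in the fertile samples, 5845.2 and 2736 in the mutants of slide 2 and 1467.5 to 1866.6 in those of slide 1, and its log2 ratio was 3.78 (SE 0.451, adjusted p = 0.0254 by limma). TC284067 had 548.4 and 490.7 in the fertile samples, 5386.9 and 9225.5 in the mutants of slide 2 and 4166.1 to 11827 in those of slide 1, and its log2 ratio was 3.76 (SE 0.419, adjusted p = 0.0222 by limma). TC294048 had 2411.1 and 2850.3 in the fertile samples, 30090 and 34105 in the mutants of slide 2 and 14171 to 35915 in those of slide 1. These 3 transcripts showed no overlap between fertile and mutant samples on either slide. The ratio of TC294048 was 3.61 (SE 0.492, limma adjusted p = 0.0366).

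TC312932 had 498.3 and 575.2 in the fertile samples against 4751.3 and 6570.9 in the mutants of slide 2, which gave a log2 ratio of 3.38 (SE 0.497, adjusted p = 0.0446 by limma). DN228089 had 99.96 and 143.9 in the fertile samples against 1330.7 and 816.1 in the mutants of slide 2, which gave a log2 ratio of 3.12 (SE 0.370, adjusted p = 0.0253 by limma). The slide 1 mutants had 3476 to 7337.6 for TC312932 and 239.5 to 1697.9 for DN228089, again above both fertile samples. TC304010 rose from near background: 1 of the 2 fertile samples was well above it, at intensities of 73.2 and 85.3, against 550.5 and 694.7 in the mutants of slide 2 and 91.0 to 278.7 in those of slide 1. Its log2 ratio was 2.97 (SE 0.285, limma adjusted p = 0.0148), but the size depended on the floor under the fertile signal, at 4.32 with an offset of 10 and 6.55 with the processed signals. The other probe for TC304010 was not called, at 0.05.

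TC287746 was the one named transcript measured by 2 probes that were both called. Its first probe, A_92_P038023, had 353.5 and 475.3 in the fertile samples, 3949.6 and 2812.1 in the mutants of slide 2 and 2293.7 to 5982.9 in those of slide 1, which gave a log2 ratio of 3.02 (SE 0.203, adjusted p = 0.00443 by limma). The other probe, A_92_P035277, had 5860.9 and 5805.8 in the fertile samples and 44487 and 34077 in the mutants of slide 2, and gave 2.74 (SE 0.145, limma adjusted p = 0.00184). All 6 mutants were above both fertile samples with either probe. With dye-swapped arrays averaged, 8 of the 10 named falls but 1 of the 8 named rises, TC295588, still passed.

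Targets with several probes were compared within the same RNA. Of 2272 target names with more than 1 tested probe, 59 had at least 1 called probe, 44 lower and 15 higher. All probes shared the sign of the call in 49 of the 59, both probes were called in 6, and no target had probes called in opposite directions. Of the 58 partner probes that were not called, 48 had the sign of the called one. The share with the same sign over all targets with several probes was not computed. The pairs did not always give the same size: TC307265 had log2 ratios of -3.33 and -3.18 and TC315213 of -1.98 and -1.97, but TC293496 had -3.88 from a probe at 29626 and 24905 in the fertile samples and -0.83 from one at 100.5 and 129.4. TC283057, at -3.28 and -1.64, and TC307051, at -4.31 and -3.18, lay between. These 6 targets were singled out after their calls were seen. In the remaining targets an uncalled partner could have a like size, as in TC290170 (-0.76 and -0.68), or a far smaller one. TC307525 had -4.95 and -0.14, and TC301447 had -4.14 and 0.09. These examples were also picked after their values were seen.

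The slide 1 mutants were used in the model for the spread but not for the ratio to siblings, and their replicate numbers differ from that on slide 2. Of the 362 called falls with values in all 8 ms23 samples, 329 (90.9%) had all 4 slide 1 mutants below both fertile samples, against 9.39% of all probes with such values. Among 147 called rises, 107 (72.8%) had all 4 above both fertile samples, against 8.61%. All 10 named falls and all 8 named rises were among them. The fertile samples are the same ones that made the calls, and slide and replicate number differ together between these mutants, so these shares describe the samples and are no independent test.

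Mutant intensities of the fallen transcripts were not the same on the 2 slides. Both slide 2 mutants were above all 4 slide 1 mutants for 82 of the 362 falls (22.7%), against 6.43% of all probes with values in all 8 samples, and for 5 of the 10 named falls and 10 of the 22 falls of at least 32-fold. On slide 2 these samples shared the array with a fertile sibling and on slide 1 with an ms32 mutant. Replicate number, slide and the partner on the array change together, so they cannot be told apart.

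Calls were scarce among dim probes. When tested probes were ranked by the mean log2 intensity of the 4 samples, the dimmest of 4 equal classes (54.9 to 77) held 1 called fall and no rise among 9931 probes. The second class held 48 falls (0.483%) and 4 rises (0.0403%), the third 150 (1.51%) and 48 (0.483%), and the brightest, from an intensity of 706, 171 (1.72%) and 102 (1.03%). The median SE of a log2 ratio rose from 0.0981 in the dimmest class to 0.222 in the brightest. The part of the offset in these shares was not tested.

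**Figure D4:**
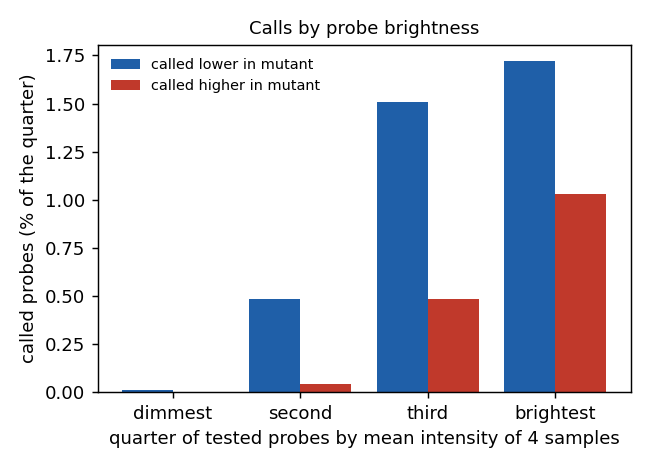
Share of probes called lower (blue) or higher (red) in ms23 mutants within each of 4 equal classes of tested probes, ranked by mean log2 intensity over the 4 samples. The share of falls goes from 0.0101% of the dimmest class to 1.72% of the brightest, and that of rises from 0% to 1.03%.

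By kind of target, falls made up 1.07% and rises 0.476% of 26463 tested probes with TC names, and 0.667% and 0.207% of 13037 probes named by single GenBank entries. Among 304 probes for assembled genomic islands (MAGI names) 2 were lower, and among 148 probes with NP names 1 was higher. The called probe of MAGI4_57154 had 168.8 and 136.3 in the fertile samples and 64.2 and 55.5 in the mutants of slide 2, where it was not well above background in either, but its 4 other probes had log2 ratios between -0.10 and 0.01 and were not called. The called probe of MAGI4_129391 had -1.39 (limma adjusted p = 0.0175) and its other probe -0.06. NP669577 had 148.7 and 218.0 in the fertile samples and 375.8 and 269.2 in the mutants of slide 2, a log2 ratio of 0.82 (limma adjusted p = 0.0435), while the mutants of slide 1, at 156.7 to 221.7, overlapped the fertile samples. These 3 were singled out after their calls were seen.

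No probe for a named gene of the meiotic machinery was called. The list had 17 tested probes. AM1 is needed for meiocytes to enter meiosis, ZmRAD21, ZmSMC1 and ZmSMC3 belong to the cohesin ring that holds sister chromatids together, and ZmSGO1 protects cohesion at centromeres. Limma called 0 of the 17 at an adjusted p under 0.05 beside 1.31% called over all tested probes. An unadjusted p under 0.05 was found for 0 of the 17 and for 11.6% of all tested probes. Their median log2 ratio was 0.06, against -0.000273 over all tested probes. Of the 17 ratios 16 were positive, but several probes measured the same gene in the same RNA. The share of positive ratios over all tested probes was not computed.

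AM1, expressed in meiocytes, was well above background in all 8 ms23 samples with each of its 3 probes, and its log2 ratios were 0.05 to 0.10, with 95% confidence intervals reaching from -0.46 to 0.60. Its probe A_92_P001166 had 379.2 and 493.6 in the fertile samples, 503.9 and 397.1 in the mutants of slide 2 and 331.0 to 561.8 in those of slide 1, so that the groups overlapped. ZmSMC3 had the highest ratios of the list, from 0.32 to 0.44 over its 4 probes, with intervals from -0.46 to 1.1. Its probe A_92_P028580 had 524.6 and 425.0 in the fertile samples and 590.4 and 697.0 in the mutants of slide 2, but 389.4 to 1045 in the mutants of slide 1, which overlapped the fertile samples. Its other probes A_92_P034647, A_92_P027128 and A_92_P008258 had log2 ratios of 0.39, 0.34 and 0.32 (limma adjusted p = 0.485, 0.735 and 0.881), and A_92_P028580 had 0.44 (limma adjusted p = 0.605). The 2 ZmSMC1 probes had 0.04 and 0.06, ZmSGO1 had 0.01, and the 7 ZmRAD21 probes lay between -0.03 and 0.19. These 7 had intensities of only 57.5 to 113.6 in the 4 samples of the comparison, where the offset understates a ratio. For A_92_P009368 among them 0 of the 8 ms23 samples were well above background, and for A_92_P025164 1 of the 2 fertile samples was.

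The 4 probes for MuDR, the autonomous element of the Mutator transposon family, were not called either in ms23 mutants against their siblings. MUDR-TIRA had intensities of 210.7 and 178.6 in the fertile samples and 139.9 and 147.1 in the mutants of slide 2, but 206.8 to 408.6 in those of slide 1, which did not share the lower level. Its log2 ratio was -0.44 (95% confidence interval -0.80 to -0.08, limma adjusted p = 0.309), and it was the 1 of the 4 with an unadjusted p under 0.05, against 11.6% of all tested probes. MUDRA, MUDRA-21 and MUDRB had -0.23, -0.08 and -0.02 (limma adjusted p = 0.898, 0.990 and 0.999), and MUDRA-21 and MUDRB turned positive, at 0.17 and 0.28, with median centring.

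The ms32 family was set beside these results to ask which changes differed between the families. Of the 10 named falls, 8 also passed the threshold in ms32 mutants, and the ms32 log2 ratios of the 10 ranged from -7.05 to -3.56. The direct test of the difference called 0 of the 10, with the lowest limma adjusted p at 0.124 for TC284827, which fell by 6.29 in ms23 and by 3.67 in ms32 mutants. For TC297345, TC291756 and BM501035 the ms32 ratios were -6.14, -6.03 and -5.95, and the differences between the families were -0.04, -0.13 and -0.13. These small differences depended on the processing of mutant signals near the floor: they were 1.01, -1.80 and 1.39 with the processed signals and 2.81, -5.85 and 2.78 with the authors' value table, in the same order. None of the 8 named rises passed in ms32 mutants, where all 8 ratios were positive, from 0.95 to 2.49, and the test of the difference called 0 of them, with limma adjusted p of 0.297 or more. In the direct slide 1 ratio of ms23 over ms32 mutants, which involves no sibling, limma called 4 of the 8 rises: TC284067 at 1.50 (adjusted p = 0.0192), TC312932 at 1.53 (adjusted p = 0.0307), DN228089 at 1.30 (adjusted p = 0.0202) and, in the other direction, TC295588 at -1.58 (adjusted p = 0.0435). It called 2 of the 10 falls, TC314183 at -5.62 (adjusted p = 0.000835) and TC290061 at -0.81 (adjusted p = 0.0442). The share of all tested probes called in this direct ratio was not computed, so these counts cannot be set against it. Of the 22 falls of at least 32-fold, 15 were also called in ms32 mutants, and for 0 of them did the direct test find a difference between the families. The share of all tested probes called in the ms32 comparison was not computed, so the counts of falls also called there have none beside them.

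**Figure D5:**
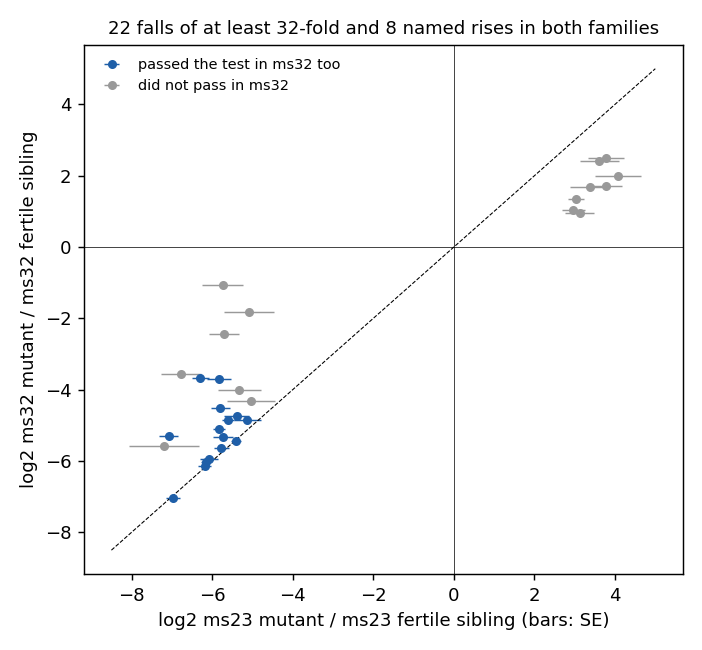
Log2 ratio of mutant over fertile sibling in the ms23 family (horizontal axis, bars are SE) and in the ms32 family (vertical axis) for the 22 falls of at least 32-fold and the 8 named rises. Blue points passed the test in the ms32 family too (15 falls), grey points did not, and the dashed line marks equal ratios.

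Over all tested probes the ratios of mutant over sibling differed between the families for 12 of 39969 (0.03%, limma adjusted p under 0.05). Among them were 5 of the 525 probes called in the ms23 comparison. CF036691, described above, had an ms32 ratio of -0.07, and its ratio of -4.11 differed by -4.05 (SE 0.184, limma adjusted p = 0.0128). TC303557 had 959.7 and 1522.5 in the fertile samples and 78.1 and 95.5 in the mutants of slide 2, and its ratio of -3.81 differed by -3.94 (SE 0.231, limma adjusted p = 0.0281). On slide 1, where the mutants were set against each other, the log2 ratios of ms23 over ms32 mutants were -0.11, 0.05 and 0.06 for CF036691, TC303557 and CF624853, which were not called. TC287713, at -0.77 (limma adjusted p = 0.00167), and TC295487, at 0.55 (limma adjusted p = 0.00941), were called there. All 5 were named after their calls were seen. The ms32 ratios of mutant over sibling were -0.07, 0.13 and -0.11 for CF036691, TC303557 and CF624853. The fertile siblings of the 2 families did not share an array, and a difference between these siblings was not tested. CF624853 had 450.2 and 563.2 in the ms23 fertile samples, 84.5 and 72.3 in the mutants of slide 2 and 62.2 to 91.0 in those of slide 1, and its ratio of -2.69 differed from that in the ms32 family by -2.58 (SE 0.135, limma adjusted p = 0.0195). TC287713 had 1439.6 and 1397 in the fertile samples and 370.1 and 314.1 in the mutants of slide 2, and its ratio of -2.06 differed by -2.24 (SE 0.151, limma adjusted p = 0.0353). TC295487 had 908.7 and 1285.9 in the fertile samples and 4036 and 2129.9 in the mutants of slide 2, but a slide 1 mutant at 939.3 lay within the fertile range. Its ratio of 1.44 differed by 2.34 (SE 0.175, limma adjusted p = 0.045).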

How the data were processed

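The scanner files hold linear intensity values of spots and local background, processed intensity values and marks for outliers, saturation and signal well above background; per the file headers, the authors' arrays were of Agilent design 016047, and the scans were quantified by Feature Extraction, version 10.5.1.1. The deposited table of processed intensity values is credited to Feature Extraction and limma in the submitters' processing notes, with steps not given in the sources used here; the marks have no other unit.

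Median spot and background signals were corrected by normexp (offset 50) and normalized by loess within arrays using limma 3.58.1 (with statmod 1.5.0, under R 4.3.3). Outlier spots (1322) and control spots (1417) were left out. A probe entered the test if any group had 50% or more of its samples marked well above background (39981 probes). Turned log2 ratios of all 8 arrays entered 1 limma model with a dye term and a random block for arrays of the same replicate numbers (consensus correlation -0.277, set to 0), with Benjamini-Hochberg adjustment; the model was tested on simulated data. The ms23 ratio is the mean of its 2 arrays, both on slide 2, so slide does not enter it; 251 probes lacked a value on 1 of them. Levels per sample were taken after Aquantile scaling of the same values, which leaves ratios unchanged. Named transcripts are the 10 deepest falls and 8 largest rises with the same sign on both arrays and both samples of the brighter group well above background, 1 probe per target, and the 4 largest ratios of each gene list; symbols of 7 other lists (tapetum regulators, early anther patterning, pollen wall and cuticle, phased small RNA factors, flavonoid enzymes, sugar supply, pollen markers) matched no probe name, and lists defined by gene descriptions could not be used because the files give none. Members and lists were chosen with earlier results of these data known.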

Additional observations from a re-analysis of the deposited data

Results flagged for a closer look

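Among the 6 ms23 mutant samples, the values of 26 named probes were examined for a sample far from the rest, and 1 was found. TC308375 had an intensity of 296.6 in the replicate 3 mutant labelled with Cy3, whereas the other 5 mutants lay between 60.7 and 101.8. Its gap to the nearest sample was 0.674 of the whole range on the log2 scale, above the critical value of 0.625, which chance passes in about 1 of 20 groups of independent samples, so about 1 such value is expected among 26 probes. The 6 mutants are 3 replicate numbers in 2 dyes, on 2 slides, and are not fully independent.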

How the results depend on the processing

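All 10 named falls and 8 named rises kept their direction under the 25 alternatives: 345 of their values stayed on the same side of the threshold and 104 no longer passed. They were picked by size and for the same sign on both arrays, and several alternatives left the ratio itself unchanged. The kept direction is therefore no independent test. The count of 371 falls and 154 rises moved more. Scaling between arrays gave 589 and 339, median centring 265 and 497, a dye term per slide 300 and 66, and 116 and 97 were called from the authors' value table, of which 71 and 16 were among the original calls. The 2 ms23 arrays alone gave 42 and 4, averaged dye swaps 30 and 2, and slide 2 alone 0 and 0 by limma, with 4463 probes at an unadjusted p under 0.05. With arrays of the same replicate numbers as a replicate block of fixed correlation 0.5, 43 falls and 3 rises passed, whereas the estimated correlation of -0.277 left 371 and 154, as did no block. Leaving out 1 array at a time gave 47 to 386 falls and 1 to 145 rises. The lowest counts came without slide 2 array 4 (47 and 1) or array 3 (70 and 1), each leaving 1 ms23 array, assumed to vary like the others, and without 1 of the slide 1 arrays 183 to 252 falls and 51 to 103 rises passed. Fewer arrays or degrees of freedom are part of these settings. The cause of the other changes was not tested. Among the 18 named falls and rises, the test of the difference from the ms32 family called 0. The count went to 1 with scaling and with trended robust variances (TC284827) and with the authors' table (TC304010). Ratios that changed sign were those of MUDRB (0.0444 with processed signals, 0.2788 with median centring, 0.004399 with the authors' table, and -0.1199 to 0.07261 leaving out 1 array), MUDRA-21 (0.1659 with median centring) and ZmSMC3 probe A_92_P027128 (-0.03538 to 0.7217 leaving out 1 array). Differences between families that changed sign were those of TC297345 (0.09436 with offset 10, 1.008 with processed signals, 0.265 with median centring, 2.813 with the authors' table), BM501035 (0.3036, 1.387, 0.2399 and 2.783 likewise), TC291756 (0.1775) and MUDRB (0.01795) with median centring and AW520047 (-0.03725) with scaling. Leaving out 1 array, these differences ranged from -0.3116 to 0.4649 for AW520047, -0.4079 to 0.319 for TC297345, -0.3005 to 0.04076 for TC291756, -0.7192 to 0.4574 for BM501035, -0.3256 to 0.4315 for ZmSMC3 probe A_92_P027128, -1.018 to 0.144 for MUDRA, -0.8828 to 0.2151 for MUDRA-21 and -0.494 to 0.009173 for MUDRB. As reported, these 8 differences lay between -0.44 and 0.08. Few dim probes were called, and calls by brightness were not computed under another offset.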
